A study of Mus musculus with 10 samples.

Results

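The genes described here are 32 chaperones, folding enzymes, degradation factors and stress sensors of the endoplasmic reticulum (ER), named as a list by symbol and found in a table of 55866 genes. All 32 were in the table, and all 32 were among the 15767 genes with enough reads to be tested. They were measured by bulk RNA sequencing of polyadenylated RNA from iKCs, which the labels give as a mouse cell line in a series on liver macrophages and the microRNA miR-342. Every library came from cells carrying a lentiviral vector and sorted as live and positive for the fluorescent marker mOrange, so the controls were transduced and sorted as well. Of the 4 groups, 2 carried hairpin vectors and 2 carried sponge vectors. The hairpin groups were miR-342-3p overexpression (3 libraries) and its control, a mutated miR-342-3p (2 libraries). The sponge groups were the miR-342-3p sponge (3 libraries), a decoy transcript designed to bind the microRNA, and its scramble control sponge (2 libraries). The labels give neither a promoter, a time after transduction nor a number of clones. They call the libraries of a group biological replicates and say no more on whether the cultures were separate, so the p-values below measure the spread between these libraries.

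Proteins that enter the secretory pathway fold in the ER with the help of Hsp70 and Hsp90 family chaperones, disulfide and prolyl isomerases and the lectins calnexin and calreticulin. Proteins that fail to fold are drawn back into the cytosol and degraded. When unfolded proteins build up, the sensors IRE1 (encoded by Ern1), ATF6 and PERK start the unfolded protein response, in which IRE1 splices Xbp1 mRNA and the resulting XBP1 protein, with cleaved ATF6, switches on chaperone and degradation genes. Macrophages secrete cytokines and lysosomal proteins through this route. Gene counts do not tell spliced from unspliced Xbp1 mRNA, nor cleaved from whole ATF6 protein.

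Sequences are shown for the microRNA that the vectors carry or bind, and for the control elements that members of the response share. Mature mouse miR-342-3p, at chr12:108658680-108658702 on the plus strand of GRCm38.p6 in RefSeq, is printed with its seed (bases 2 to 8) in capitals.
miR-342-3p: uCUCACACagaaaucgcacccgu
ATF6 and XBP1 are known to act through the ER stress response element, searched here as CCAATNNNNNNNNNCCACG on both strands, where N is any base. It was looked for from 250 bases before to 50 bases after each RefSeq gene start (GRCm38.p6), a window listed for 28 of the 32 members and not for Hyou1, Manf, Derl1 and Atf6. The element occurred in the windows of 9 of these 28 members and of 0.1369% of all 27025 genes with a window. Its 10 sites are printed on the strand that reads in the direction of the element, with the fixed bases in capitals.
Hspa5, chr2:34772025-34772043, plus strand: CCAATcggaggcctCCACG
Hsp90b1, chr10:86705638-86705656, minus strand: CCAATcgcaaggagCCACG
Hsp90b1, chr10:86705533-86705551, plus strand: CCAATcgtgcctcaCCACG
Dnajc3, chr14:118937827-118937845, plus strand: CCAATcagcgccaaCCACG
Creld2, chr15:88819520-88819538, minus strand: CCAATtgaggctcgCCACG
Pdia6, chr12:17266491-17266509, plus strand: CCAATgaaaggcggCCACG
Calr, chr8:84847075-84847093, plus strand: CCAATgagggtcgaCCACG
Canx, chr11:50325800-50325818, minus strand: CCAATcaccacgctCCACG
Syvn1, chr19:6046532-6046550, plus strand: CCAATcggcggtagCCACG
Derl3, chr10:75893242-75893260, minus strand: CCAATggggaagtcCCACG
The related element ERSE-II, searched as ATTGGNCCACG, was in the windows of Herpud1 and Dnajb11 and of 0.0444% of all genes.
Herpud1, chr8:94386377-94386387, plus strand: ATTGGgCCACG
Dnajb11, chr16:22857852-22857862, plus strand: ATTGGcCCACG
The 250 bases before the Hspa5 start (chr2:34771840-34772089, plus strand) also hold TGACGTG, the core of the XBP1 binding element, which lay in 2.224% of all genes' windows and, among the members, in those of Hspa5 and Txndc5. In this stretch the capitals mark that core and the ER stress response element.
Hspa5 upstream: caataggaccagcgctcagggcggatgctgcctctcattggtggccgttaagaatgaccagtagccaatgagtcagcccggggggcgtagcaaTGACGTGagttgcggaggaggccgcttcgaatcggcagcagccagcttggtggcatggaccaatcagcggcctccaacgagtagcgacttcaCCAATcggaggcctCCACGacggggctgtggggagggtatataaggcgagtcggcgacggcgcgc
A match of letters is a description of these windows and shows no binding.

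The libraries held between 25713110 and 59260772 reads assigned to genes. Counts of sponge replicate 3 and of a scramble library were split from joined digits, as described with the processing below. Levels are given as CPM, a gene's reads scaled to library size with TMM factors, and changes as log2 fold changes. The Mir342 gene was listed with 8.22 to 11.3 CPM in the overexpression libraries, 2.86 to 3.22 CPM in the mutated control libraries and 0 reads in the 5 sponge and scramble libraries. These are reads of polyadenylated RNA assigned to the gene and do not measure the level of the mature microRNA. All 12 macrophage markers passed the read filter, with a summed level of 6500.51 to 7715 CPM, while the Kupffer cell markers Clec4f and Timd4 were at 0 in every library and the 10 Kupffer cell markers summed to 24.0 to 32.1 CPM. Overexpression replicate 1 and sponge replicate 3 stood apart from the other libraries in a way related to gene length: across 10058 genes, the deviation of a library from the mean had a Spearman correlation of -0.59 with gene length in both, against -0.12 to 0.43 in the other 8. The count of called members in each comparison is therefore also given without these 2 libraries, a setting chosen after seeing the data.

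**Figure D1:**
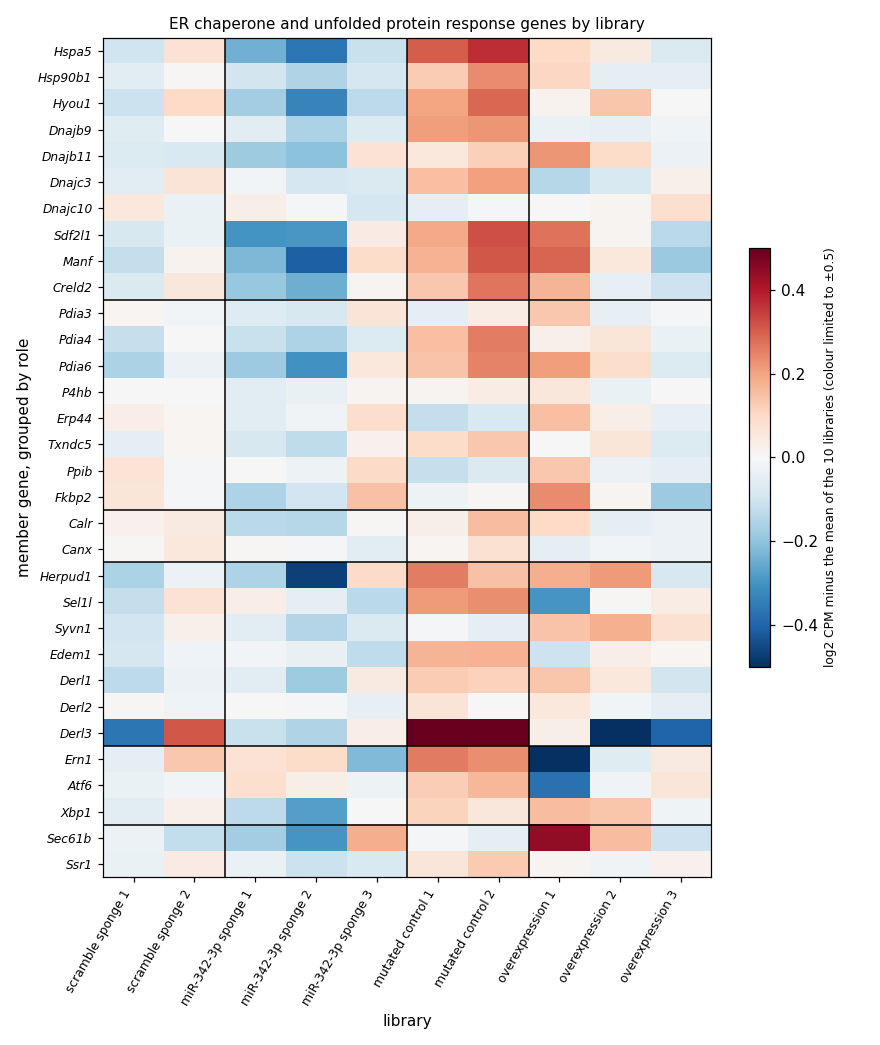
Heat map of the 32 member genes (rows, grouped by role between horizontal lines) in the 10 libraries (columns, grouped by vector between vertical lines); colour is log2 CPM minus the mean of the 10 libraries, with the colour scale limited to 0.5 either way. The mutated control columns are mostly red, with 25 and 27 of 32 members above the mean, and sponge replicate 2 is mostly blue, with 2 of 32 above it.

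By group mean, most of the members were highest in the mutated hairpin control and lowest in the miR-342-3p sponge. The mutated control had the highest group mean for 23 of the 32, the overexpression group for 8 and the scramble sponge for 1, Ppib. The sponge had the lowest group mean for 22 of the 32, overexpression for 6, the mutated control for 3 and the scramble sponge for 1. These orders were not counted over all genes, so they do not show whether the members differ from other genes in this. Without overexpression replicate 1 and sponge replicate 3, the mutated control was highest for 25 and the sponge lowest for 22. The sponge libraries were not alike: replicate 2 was the lowest of all 10 libraries for 18 members, while in replicate 3 the members' median deviation from the mean was 0.00 with 16 of 32 above it, higher than in scramble replicate 1 (-0.06, 8 above). Sponge replicate 3 and scramble replicate 1 are the libraries split from joined digits, the scramble number following the header's order. Without sponge replicate 2 the sponge was lowest for 17 members. The steps between groups were small: the ratio of the highest to the lowest group mean was 1.49 for Hspa5, 1.03 for P4hb and 2.14 for Derl3. No member passed edgeR's quasi-likelihood test at an adjusted p of 0.05, taken over all 15767 genes, in any of the 6 comparisons planned.

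Hspa5, which encodes BiP, the Hsp70 chaperone of the ER lumen, was the member with the smallest p in the pooled comparison of vectors. Its level was 1755 and 1837 CPM in the mutated control libraries, 1523, 1470 and 1355 CPM in the overexpression libraries, 1327 and 1496 CPM in the scramble libraries and 1204, 1107 and 1316 CPM in the sponge libraries. Both mutated control libraries lay above all 8 others, and the 3 sponge libraries lay below both scramble libraries. The share of all genes with the mutated control above every other library was not counted, here or for the members below. Relative to length, Hspa5 (340.2 CPM per kb over the 10 libraries) and Calr (342 CPM per kb) were the members with the highest levels.

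Hyou1, the nucleotide exchange factor that works with BiP, followed the same order of groups. It was at 271 and 288 CPM in the mutated control, 240, 260 and 237 CPM with overexpression, 220 and 253 CPM with the scramble sponge, and 210, 188 and 216 CPM with the sponge. The mutated control libraries again lay above all others. Dnajb9, a J-domain co-chaperone of BiP that holds IRE1 in check, was at 71.7 and 72.4 CPM in the mutated control against 55.8 to 62.2 CPM in the other 8 libraries. Its 3 overexpression libraries lay within 60.4 to 61.3 CPM, inside the range of the scramble pair (59.7 and 62.2 CPM).

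Pdia4, a disulfide isomerase, was at 214 and 230 CPM in the mutated control and at 196, 201 and 188 CPM with overexpression. The scramble libraries were at 178 and 192 CPM and the sponge libraries at 178, 173 and 184 CPM. These last groups overlapped, while the mutated control lay above all others. Derl3, a derlin that takes part in ER-associated degradation, was the least abundant member, at 0.788 CPM per kb, and varied most. It was at 2.31 and 2.66 CPM in the mutated control, 1.16 and 1.85 CPM with the scramble sponge, 1.38, 1.34 and 1.52 CPM with the sponge, and 1.52, 0.840 and 1.13 CPM with overexpression.

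Among the sensors, Ern1 (IRE1) was at 96.8 and 94.8 CPM in the mutated control, 78.3 and 88.6 CPM in the scramble libraries, 84.9, 86.1 and 69.3 CPM in the sponge libraries and 56.9, 77.4 and 83.4 CPM with overexpression. The lowest of these values are those of overexpression replicate 1 and sponge replicate 3. Atf6 was at 152 and 157 CPM in the mutated control, 136 and 139 CPM in the scramble libraries, 148, 143 and 137 CPM in the sponge libraries and 108, 138 and 146 CPM with overexpression, the lowest again being overexpression replicate 1. Xbp1, the transcription factor gene, had another order: 111, 110 and 98.1 CPM with overexpression, 108 and 104 CPM in the mutated control, 95.9 and 101.6 CPM in the scramble libraries and 91.0, 82.4 and 99.6 CPM in the sponge libraries. The overexpression and mutated control libraries of Xbp1 overlapped.

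**Figure D2:**
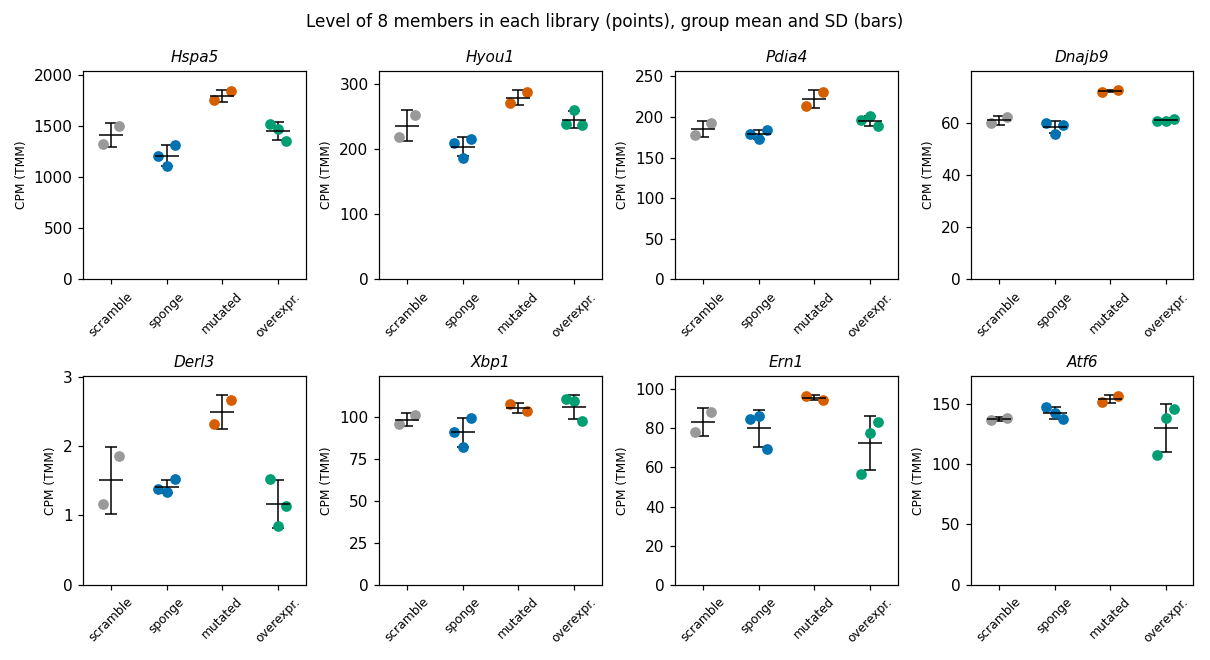
Level in CPM with TMM scaling (vertical axes, from 0) of 8 members in each library (points), with the group mean and SD (bars), for the scramble sponge (n = 2), the sponge (n = 3), the mutated control (n = 2) and overexpression (n = 3). The mutated control points lie above all others for Hspa5, Hyou1, Pdia4, Dnajb9, Derl3, Ern1 and Atf6, while those of Xbp1 overlap with overexpression. The share of all genes with this order was not counted, and the 8 members include those picked for the smallest p.

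The overexpression group was compared with the mutated control to see what the microRNA changes against its own vector. Of all genes tested, 0.539% were called here, and 0 of the 32 members. An unadjusted p under 0.05 was reached by 12 members, against 18.2% of all genes. DESeq2 called 4 members (Derl3, Dnajb9, Dnajc3 and Hspa5, all lower with overexpression) where it called 3.15% of all genes tested, and limma-voom called 0. The median log2 fold change of the members was -0.10, against -0.01 over all genes, with 23 below 0 and 9 above, and was -0.06 without overexpression replicate 3. The overexpression libraries lay wholly below the mutated control for 14 members (19.3% of all genes) and wholly above it for 4 (18.9% of all genes), namely Syvn1, Erp44, Ppib and Dnajc10.

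By role, 8 of the 10 Hsp70 and Hsp90 system members were below 0, with a median log2 fold change of -0.19. Hspa5 was at -0.31 (SE 0.087, adjusted p = 0.133 by edgeR), Dnajb9 at -0.24 (SE 0.058, adjusted p = 0.0916) and Dnajc3, which encodes the co-chaperone p58IPK, at -0.24 (SE 0.067, adjusted p = 0.132). The 8 isomerases had a median of 0.01, with 4 on each side. Erp44, which retrieves proteins from the early secretory pathway, was at 0.15 and Ppib, a prolyl isomerase, at 0.12, while Pdia4 was at -0.19. Of the 7 degradation members 6 were below 0. Derl3 was at -1.06 (SE 0.24, adjusted p = 0.0858), Sel1l, the partner of the ubiquitin ligase HRD1, at -0.30 and Edem1, which marks misfolded glycoproteins, at -0.19. Syvn1, the gene of HRD1 itself, was at 0.16 (SE 0.064, adjusted p = 0.233). Ern1 was at -0.40 and Atf6 at -0.24, while Xbp1 had an interval from -0.20 to 0.22, so changes within that range were not excluded.

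Without overexpression replicate 1 and sponge replicate 3, edgeR called 7 members, all lower with overexpression, and 4.83% of all genes. These were Hspa5 (log2 fold change -0.34, adjusted p = 0.0111), Derl3 (-1.37, adjusted p = 0.00487), Dnajb9 (-0.24, adjusted p = 0.0214), Ern1 (-0.25, adjusted p = 0.0273), Hsp90b1, Sdf2l1 and Creld2. The estimate for Dnajb9 was -0.24 with and without the 2 libraries. Those for Ern1 and Atf6 were closer to 0 without them, Atf6 being at -0.12 (adjusted p = 0.182).

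The mutated control was then compared with the scramble sponge, the second control. Of all genes 0.0254% were called, and 0 of the 32 members. An unadjusted p under 0.05 was reached by 12 members, against 6.47% of all genes, and DESeq2 and limma-voom called 0 members. The median log2 fold change was 0.17, against 0.00 over all genes, and 27 members were above 0. Both mutated control libraries lay above both scramble libraries for 22 members, against 24.1% of all genes, and below both for 2 members, Ppib and Erp44, against 24.2% of all genes. The change was 0.35 for Hspa5 (SE 0.096, adjusted p = 0.397), 0.26 for Pdia4 (SE 0.070, adjusted p = 0.372) and 0.24 for Dnajb9 (SE 0.063, adjusted p = 0.347). The 9 of 10 Hsp70 and Hsp90 system members above 0 left out Dnajc10, the disulfide reductase ERdj5. All 7 degradation members and all 3 sensor and transcription factor genes were above 0 as well. When only these 4 libraries were fitted, 12 members were called higher in the mutated control along with 3.79% of all genes, and without the 2 length-related libraries 6 were called (Hspa5, Pdia4, Dnajb9, Edem1, Pdia6 and Sdf2l1) along with 1.73%.

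This comparison and the one before it share the mutated control libraries, so a high value there enters both with opposite sign. Overexpression against the scramble sponge does not use them. It gave 0 called members (0.0444% of all genes called; 0 and 2.4% without the 2 length-related libraries), 1 with an unadjusted p under 0.05 (13.4% of all genes), 0 by DESeq2 or limma-voom and a median log2 fold change of 0.03, which was 0.00 without overexpression replicate 1 and 0.06 without overexpression replicate 3. Hspa5 overlapped between these groups, and the member with the smallest p was Syvn1, at 0.17 (SE 0.064, adjusted p = 0.311), whose 3 overexpression libraries (83.1, 85.0 and 79.4 CPM) lay above both scramble libraries (70.4 and 76.6 CPM).

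The sponge was compared with its scramble control. No gene was called, 0% of all tested, so no member was. An unadjusted p under 0.05 was reached by 2 members, Hspa5 and Hyou1, against 2.33% of all genes, and DESeq2 and limma-voom called 0 members. Hspa5 was at -0.22 (SE 0.087) and Hyou1 at -0.21 (SE 0.084), both with an adjusted p of 1 by edgeR. The values of 30 of the 32 members were below 0, though the median was only -0.05, and 5 members lay wholly below the scramble libraries (8.3% of all genes): Hspa5, Hyou1, Hsp90b1, Calr and Ssr1. Derl1 and Atf6 were above 0, at 0.02 and 0.05. These values turned on single libraries. The median was -0.11 without scramble replicate 1 and -0.03 without scramble replicate 2, and over all single libraries left out Hspa5 ran from -0.31 to -0.13 and Hyou1 from -0.31 to -0.10. Without the 2 length-related libraries the median was -0.08, 10 members and 1074 of 15645 genes had an unadjusted p under 0.05, and no gene was called.

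**Figure D3:**
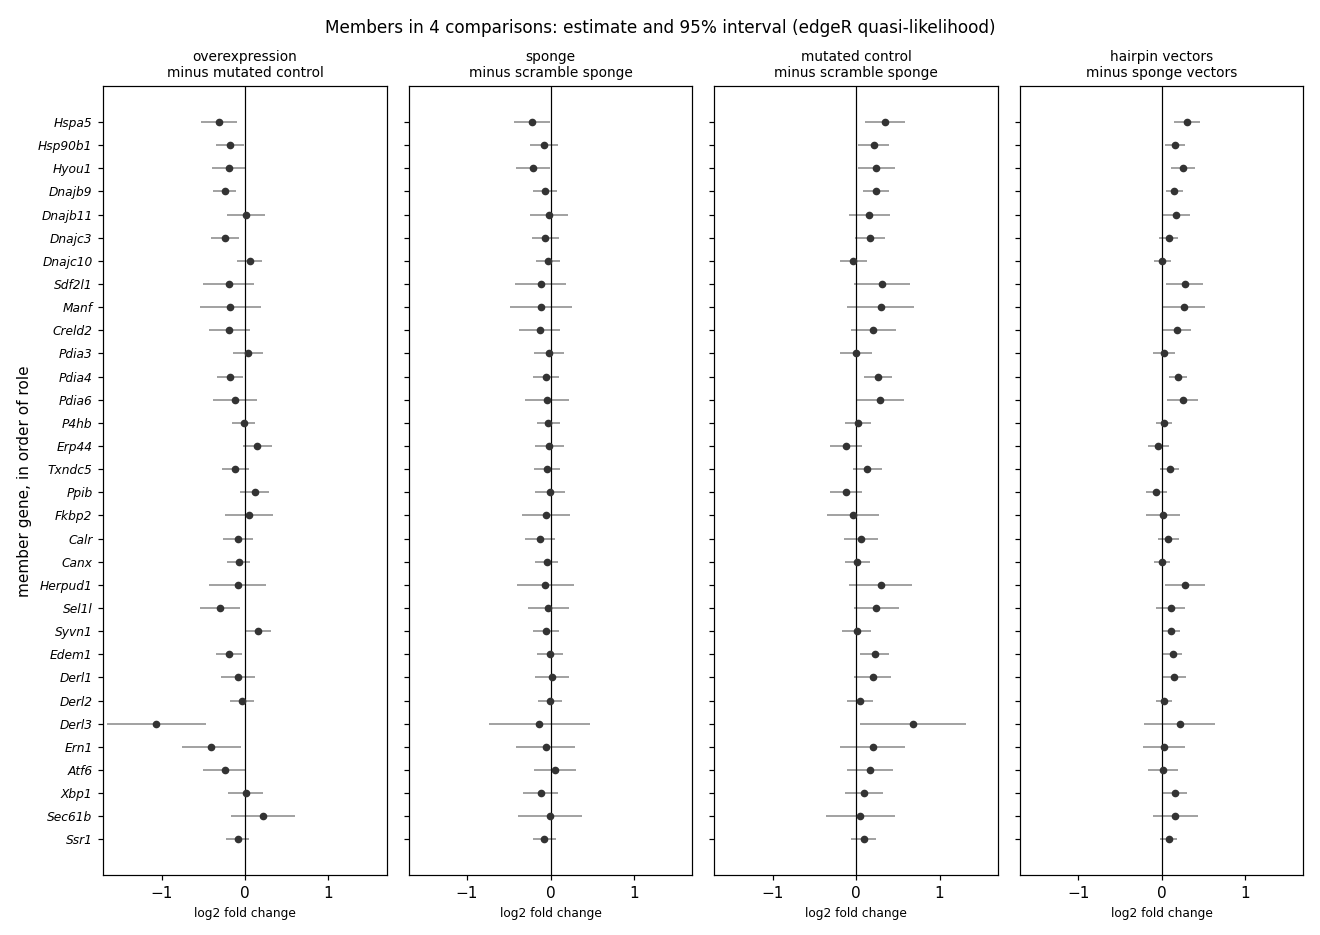
Log2 fold change (horizontal axis) with its 95% interval for the 32 members (vertical axis, in order of role) in 4 comparisons, by edgeR's quasi-likelihood fit. Most points lie left of 0 for overexpression against the mutated control, close to 0 for the sponge against its scramble and right of 0 in the other panels, and no member passed the adjusted threshold in any of them.

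The 2 hairpin groups together were compared with the 2 sponge groups. Of all genes 0.241% were called, and 0 members. An unadjusted p under 0.05 was reached by 15 members, against 14.1% of all genes. DESeq2 called 4 (Hspa5, Hyou1, Pdia4 and Dnajb9, higher with hairpins) where it called 2.47% of all genes tested, and limma-voom called 0. The median was 0.12, with 30 members above 0 and only Erp44 and Ppib below. Hspa5 was at 0.30 (SE 0.062, adjusted p = 0.0678), Hyou1 at 0.25 (SE 0.059, adjusted p = 0.0925) and Pdia4 at 0.19 (SE 0.045, adjusted p = 0.0918). The pooled libraries of the 2 vector types overlapped for every member, while for 3.68% of all genes they did not. Without the 2 length-related libraries 13 members were called higher, along with 7.84% of all genes, Hspa5 at 0.32 (adjusted p = 0.00182) and Xbp1 at 0.18 (adjusted p = 0.0221) among them. Vector type and any other feature that separates hairpin from sponge cultures cannot be told apart.

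The test of whether overexpression and sponge acted differently, each against its own control, called 0 genes (0%) and 0 members, and 1.73% of all genes and 0 members without the 2 length-related libraries. It gave 3 members with an unadjusted p under 0.05 (Derl3, Syvn1 and Dnajb9), against 8.06% of all genes, and 0 by DESeq2 or limma-voom. For Derl3 the difference of the log2 fold changes was -0.93 (SE 0.35, adjusted p = 0.562).

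A pair of further comparisons was added after these values were seen, which makes 8 in all. The mutated control against the sponge, the groups that were highest and lowest, differs in both vector and microRNA function. Hspa5 rose in it, with a log2 fold change of 0.57 (SE 0.087, 95% interval 0.36 to 0.78, adjusted p = 0.0335 by edgeR), and was the only member called, where 0.311% of all genes were. An unadjusted p under 0.05 was reached by 18 members, against 12% of all genes. The groups were picked for being furthest apart, so this call is a description of a contrast chosen from the data and not support for it. It was lost (adjusted p of 0.05 or more) in 7 of the 10 fits that left out a single library, where adjusted p ran from 0.0114 to 0.545. The call was also lost with the replicate block and with the block by library number. Other settings called more: DESeq2 6 members and 1.86% of all genes, a fit without a filter on low counts 10 and 1.57%, and the fit without the 2 length-related libraries 18 and 3.81%. The value for Hspa5 ran from 0.51 to 0.64 over 23 alternative settings. Hyou1 was at 0.45 (adjusted p = 0.0541), Dnajb9 at 0.31 (adjusted p = 0.0562) and Pdia4 at 0.31 (adjusted p = 0.0707). Overexpression against the sponge called 0 members and 0.767% of all genes, with 7 members at an unadjusted p under 0.05 (17.7% of all genes), 3 called by DESeq2 (Hspa5, Hyou1 and Syvn1), which called 4.22% of all genes tested, and 0 by limma-voom. Without the 2 length-related libraries 8 members and 10% of all genes were called. Hspa5 was at 0.26 there (SE 0.079, adjusted p = 0.131).

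Members differed in how closely they followed Hspa5. Over the 10 libraries, 14 of the other 31 had a Pearson correlation of at least 0.8 with it in log2 CPM, and 3 were below 0. The closest were Hyou1 (0.96), Pdia4 (0.96), Hsp90b1 (0.94), the gene of the ER Hsp90 protein GRP94, and Creld2 (0.93). Below 0 were Ppib (-0.35), Dnajc10 (-0.24) and Erp44 (-0.24). These points share depth and the length relation described above, and the correlations are given as a description.

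Several members varied little between groups. Canx, the membrane lectin calnexin, lay between 731 and 803 CPM in all libraries, P4hb, the major disulfide isomerase, between 519 and 560 CPM, and Derl2 between 104 and 113 CPM. Pdia3, the isomerase that works with the lectins, lay between 654 and 759 CPM and Dnajc10 between 130.4 and 146 CPM. These are flat against the spread of Hspa5, whose coefficient of variation over the 10 libraries was 15.9%, against 2.34% for P4hb, 2.52% for Derl2, 2.91% for Canx and 3.33% for Dnajc10.

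The short and long members show the length relation directly. In overexpression replicate 1 the deviation of the 32 members from their means had a correlation of -0.70 with log gene length, and in sponge replicate 3 of -0.68. In sponge replicate 1 it was 0.66 and in overexpression replicate 3 it was 0.61, whereas in the mutated control libraries it was -0.02 and -0.11. That flat relation held for the members only. Over 10058 genes the Spearman correlation with length was 0.43 and 0.34 in mutated control replicates 1 and 2. It was -0.59, -0.01 and 0.41 in overexpression replicates 1, 2 and 3, so the groups compared differed in this trend. Sec61b, a small subunit of the translocon with a summed exon length of 1271 bases, was at 60.9 CPM in overexpression replicate 1, 49.8 and 41.7 CPM in the other overexpression libraries and 50.9 CPM in sponge replicate 3, against 36.5 to 44.7 CPM elsewhere. Ern1 (8173 bases) and Atf6 (9231 bases) were lowest in overexpression replicate 1. Sel1l (8555 bases) was at 233 CPM there and at 287 and 293 CPM in the other overexpression libraries. Which step made these libraries differ was not tested.

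**Figure D4:**
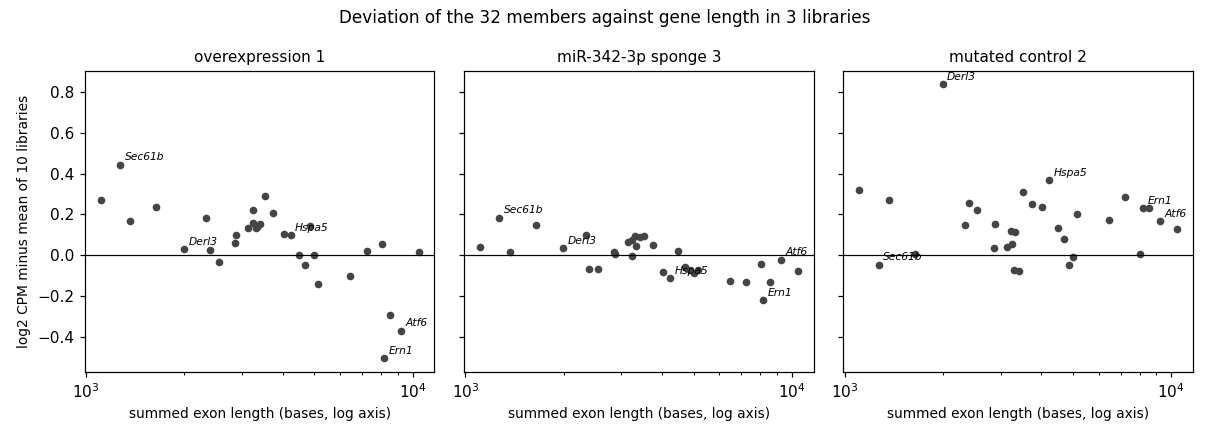
Deviation of each of the 32 members from its mean over 10 libraries (vertical axis, log2 CPM) against summed exon length (horizontal axis, bases, log axis) in overexpression replicate 1, sponge replicate 3 and mutated control replicate 2. Short members such as Sec61b lie above 0 and long ones such as Ern1 below 0 in the first 2 libraries (correlations -0.70 and -0.68). No such slope is seen among the 32 members in the mutated control library (-0.11). Over 10058 genes, the Spearman correlation of that library with gene length was 0.34.

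The members with control elements shown above can be set beside those without. In the mutated control against the scramble sponge, the 11 members with either ER stress response element were all above 0, with a median log2 fold change of 0.21 (range 0.01 to 0.68), and the 17 members whose window held neither had a median of 0.09, with 12 above 0. For overexpression against the mutated control the medians were -0.12 and -0.04, and for the sponge against the scramble -0.06 and -0.03. In the pooled comparison of vectors they were 0.18 and 0.08. The medians without the 2 length-related libraries were, in the same order of comparisons, 0.21 and 0.09, -0.18 and -0.06, -0.15 and -0.07, and 0.14 and 0.08. Among the 11, Syvn1 was at 0.01, Canx at 0.02 and Calr at 0.06 in the first of these comparisons, while Pdia4, whose window held neither element, was at 0.26.

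Sites for miR-342-3p were sought in 3′ UTRs of GENCODE vM21 transcripts, taking for each gene its longest. Median UTR length differed, at 1216.5 bases for members and 961 bases for all genes. A match to bases 2 to 8 of the microRNA was found in 7 of the 32 members and in 12.8% of 21020 genes. These shares were not adjusted for UTR length, so they do not show whether members hold more matches than genes with UTRs of similar length. Dnajc3 held the only site that was also followed by an A, at bases 2813 to 2820 of a 3513-base UTR, and Dnajb9 held a match at bases 1023 to 1029. These are the members with a match that had the smallest p for overexpression against the mutated control, printed with the match in capitals.
Dnajc3: ccccaaaacgaGTGTGAGAgagga
Dnajb9: tacaatattgtGTGTGAGtaagag
The other members with a match were Manf, Pdia3, P4hb, Derl1 and Ssr1, while Ern1 and Atf6 held only the shorter form with bases 2 to 7 and an A. The 7 members had a median log2 fold change of -0.09 for overexpression against the mutated control, with 6 below 0, and the other 25 had a median of -0.12, with 17 below 0. For the sponge against the scramble the medians were -0.06 and -0.05. Without the 2 length-related libraries they were -0.13 and -0.12 in the first comparison and -0.07 and -0.09 in the second. For Dnajc3, overexpression libraries (112, 117 and 126 CPM) lay below both mutated control libraries (137 and 142 CPM) but not below the scramble libraries (119 and 129 CPM).

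Other genes of the pathway were taken from 8 lists with 121 genes, of which 119 were tested. None of the 119 was called by edgeR in any of the 8 comparisons. An unadjusted p under 0.05 was reached by 20 (16.8%, against 18.2% of all genes) for overexpression against the mutated control and by 2 (1.68%, against 2.33%) for the sponge against the scramble. It was reached by 6 (5.04%, against 6.47%) for the mutated control against the scramble and by 22 (18.5%, against 14.1%) for hairpins against sponges. Without the 2 length-related libraries 7, 0, 2 and 14 were called in these 4 comparisons, against 4.83%, 0%, 1.73% and 7.84% of all genes. The genes with the smallest p are given from the edgeR fit of all libraries. For overexpression against the mutated control they were Bcl2l11 and Qsox1. Bcl2l11, the gene of the proapoptotic protein BIM, was at -0.60 (SE 0.14, adjusted p = 0.0882). Qsox1, a sulfhydryl oxidase, was at 0.30 (SE 0.072, adjusted p = 0.0940). For hairpins against sponges they were Fkbp11, an ER prolyl isomerase, at 0.39 (SE 0.089, adjusted p = 0.0838), and Hspa1a, a cytosolic heat shock protein gene, at -0.25 (SE 0.075, adjusted p = 0.169). For the mutated control against the scramble, Sec24d, a coat component of vesicles leaving the ER, was at 0.24 (adjusted p = 0.636) and Ero1a, the oxidase that recharges disulfide isomerases, at 0.31 (adjusted p = 0.647).

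The third branch of the response, PERK and ATF4, was measured through 14 genes outside the 32. Its median log2 fold change for overexpression was 0.20 against the mutated control (10 of 14 above 0) and 0.22 against the scramble sponge (14 of 14 above 0), where the median of the 32 members was -0.10 and 0.03 and that of all genes -0.01 in both. The mutated control was itself above the scramble for this list, with a median of 0.13 (10 of 14 above 0), and hairpins were above sponges by 0.23 (11 of 14). The overexpression medians without the 2 length-related libraries were 0.19 (10 of 14) and 0.15 (11 of 14). Chac1, an ATF4 target that breaks down glutathione, was at 12.2, 12.4 and 9.61 CPM with overexpression, 8.17 and 7.74 CPM in the mutated control, 5.53 and 6.49 CPM with the scramble sponge and 7.02, 3.96 and 8.83 CPM with the sponge. The overexpression libraries of Chac1 lay above all others, an order whose share over all genes was not counted. Its log2 fold change against the scramble was 0.93 (SE 0.25, adjusted p = 0.205 by edgeR), the highest of the 14 genes. Eif2ak3, the gene of PERK, was at -0.14 and 0.02 in the same comparisons.

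Markers of other secretory or contaminating cells were read in the same libraries. Summed plasma and B cell markers were at 27.9 to 32.03 CPM in the mutated control, 26.8 to 27.7 CPM with the scramble sponge, 22.7 to 26.1 CPM with overexpression and 20.7 to 24.5 CPM with the sponge, so the mutated control lay above the other groups, as it did for Hspa5. Of the 12 markers 3 were tested (Prdm1, Sdc1 and Ighm), and the plasma cell markers Jchain and Mzb1 were at 0 to 0.147 CPM and 0 to 0.0233 CPM. The tested markers did not all follow the sum. In the mutated control all 3 were above 0 against the scramble (median log2 fold change 0.09) and against the sponge (0.23). For overexpression against the mutated control, 2 were above 0 and 1 below (median 0.09, lowest -0.61). Macrophage markers summed to 6977 to 7434 CPM in the mutated control, within the range of the other groups. Hepatocyte markers came almost wholly from Ass1, with Alb at 0 to 0.0242 CPM, and their sum was lowest in the mutated control (39.7 to 42.9 CPM). The 10 Kupffer cell markers summed to 31.1 to 32.1 CPM in the mutated control, above the 24.0 to 29.7 CPM of the other libraries. The 9 endothelial markers summed to 39.6 to 39.7 CPM there, against 32.6 to 39.0 CPM, with 5 tested, Clec4g at 0 in every library and Kdr the largest part. The tested endothelial markers did not move together. For the mutated control against the scramble, 1 was above 0 and 4 below (median log2 fold change -0.13). For the mutated control against the sponge, 3 were above 0 and 2 below (0.05). For overexpression against the mutated control, 2 were above 0 and 3 below (-0.25). The part of these markers in the results was not tested.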

How the data were processed

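The authors deposited 1 table of raw counts per gene, made with featureCounts 2.0.1 without strand (setting 0) and a minimum overlap of 10 bases on the vM30 annotation, per the file headers. The submitters' processing notes also name STAR 2.7.6a, Trimmomatic, FastQC 0.11.6 and the build GRCm38. Each line of the deposited table holds 15 fields under 16 names, because the digits of 2 adjacent libraries, sponge replicate 3 and a scramble library, are joined. The joined digits were split by the likeliest division given the other libraries, which recovered at least 99.91% of values in 24 test pairs joined in the same way. Another 51 genes with unclear divisions were left out, none of them a member. Which scramble replicate was joined follows the header's order. The header names 12 libraries, of which 10 were analysed.

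All 10 libraries were fitted together in edgeR 4.0.16 (TMM, filterByExpr, robust quasi-likelihood, Benjamini-Hochberg over 15767 genes, threshold 0.05, 6 residual degrees of freedom). The 95% intervals use these 6 degrees of freedom alone and are wider than the test, which also borrows from other genes. Alternatives used DESeq2 1.42.0, limma 3.58.1, other scalings, filters and blocks, and each library left out. The code was tested on simulated data. Members and lists were chosen with earlier results of these data known. The rule for values by library took Hspa5, the sensors, Xbp1 and the 5 members with the smallest p, and other pathway genes by smallest p. Elements and sites were read from RefSeq and GENCODE vM21 tables. Genes sharing reads with overlapping antisense genes cannot be separated.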

Additional observations from a re-analysis of the deposited data

How the results depend on the processing

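Each comparison was refitted under 22 or 23 alternatives. The count of called members moved in 35 of the 182 values obtained, meaning a change by more than 1.5 times or a change from or to 0. In 20 of these it rose from 0. In the 7 comparisons with 0 as reported, 139 of 159 values were also 0, and the sponge against the scramble, overexpression against the scramble and the difference of the 2 vector effects gave 0 under all of them. For overexpression against the mutated control (0), it was 4 with DESeq2, 4 without a filter on low counts, 7 without both length-related libraries and 2 with a gene length offset, and 0 to 1 with single libraries left out, Derl3 being called without overexpression replicate 1. For the mutated control against the scramble (0), it was 1 without a filter, 12 with only the groups compared and 6 without both length-related libraries. For hairpins against sponges (0), it was 4 with DESeq2, 7 without a filter, 13 without both length-related libraries and 3 with the offset, and 0 to 1 with single libraries left out. The mutated control against the sponge (1), added after seeing the data, gave 6 with DESeq2, 10 without a filter, 2 with a mean of at least 1 CPM, 18 without both length-related libraries, 7 with the offset, and 0 to 5 with single libraries left out, 5 being without overexpression replicate 1. It gave 0 with the replicate block and 0 with the block by library number. Overexpression against the sponge (0), also added, gave 3 with DESeq2, 5 without a filter, 8 without both length-related libraries, 1 with the offset and 0 to 4 with single libraries left out, 4 being without sponge replicate 3. Leaving out both length-related libraries, leaving out both joined libraries and the length offset were chosen after seeing the data. Counts over all genes moved as well. Without both length-related libraries 756, 271, 1226, 596 and 1572 genes were called in these comparisons, in the order given. Where a setting has no count or share of all genes beside it, the count of members does not show whether members moved more than other genes. Why the counts moved was not tested.

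Over all genes, the count called ran from 0 to 1390 for overexpression against the mutated control (85 in the fit reported), 0 to 574 for the mutated control against the scramble (4), 4 to 1226 for hairpins against sponges (38), 1 to 747 for overexpression against the scramble (7), 0 to 24 for the sponge against the scramble (0), 0 to 331 for the difference (0), 1 to 596 for the mutated control against the sponge (49) and 13 to 1572 for overexpression against the sponge (121). Same-numbered libraries had correlations of -0.84 to 0.47 in their deviations from the group means. In a group of 2 libraries these deviations mirror each other, so the correlations cannot settle whether same-numbered libraries were handled together. The replicate block gave 0 called members in all 8 comparisons. A change of sign was counted as a reversal only where the value or its alternative had an unadjusted p under 0.05, and none occurred. Among members above that p, the sign changed in 25 of 460 values for overexpression against the mutated control, 53 of 690 for the sponge against the scramble, 19 of 460 for the mutated control against the scramble, 64 of 713 for overexpression against the scramble, 21 of 374 for hairpins against sponges, 52 of 638 for the difference, 11 of 322 for the mutated control against the sponge and 22 of 575 for overexpression against the sponge.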
